A study of Mus musculus with 80 samples.

Results

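The genes described here are 31 mouse genes of peroxisomal fatty acid oxidation and peroxisome assembly. They were found as the rows of the deposited gene table whose symbol is on a fixed list of names. All 31 were in the table, out of 22103 rows, and all 31 passed the filter on low counts, which left 15197 rows to test. Of the 31, 18 code for oxidation enzymes, transporters and catalase, and 13 are Pex genes, which code for peroxins, the proteins that build the organelle. The study asked what the perfluoroalkyl ether sulfonic acid PFESA-BP2, a fluorinated surfactant also called Nafion byproduct 2, does to gene expression in mouse liver. RNA from whole liver was sequenced from 20 individual female Balb-C mice aged 10 to 12 weeks, with 4 mice at each of 5 doses and 1 library per mouse. Mice received 0 (control), 0.03 or 0.3 mg/kg-day, or one of the higher doses, 3.0 or 6.0 mg/kg-day, by gavage once a day on 7 days. The controls carried no PFESA-BP2; their sample names mention DMSO whereas the design text mentions deionized water, so their vehicle is unsettled. The bulk tissue holds all liver cell types, and fewer cells of a type cannot be told apart from less RNA per cell.

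Peroxisomes are small organelles that shorten very long, branched and dicarboxylic fatty acids and bile acid precursors by beta oxidation. The cycle runs through an acyl-CoA oxidase, which makes hydrogen peroxide, then a bifunctional hydratase and dehydrogenase, then a thiolase, while catalase removes the peroxide. The organelle makes no protein of its own: peroxins place its membrane proteins, import its enzymes from the cytosol and divide it. In rodent liver the nuclear receptor PPARA (peroxisome proliferator-activated receptor alpha) is known to switch on many of these genes and to enlarge the peroxisome population.

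Levels are given in CPM, counts per 1000000 after scaling of the library totals, for each mouse or as mean ± SD over 4 mice. Changes are log2 fold changes ± SE. A gene rose or fell where its p-value from edgeR's quasi-likelihood test, adjusted over all 15197 rows by the Benjamini-Hochberg method, was under 0.05. Library totals ran between 13086755 and 21466978 counts, and the least abundant member, Pex10, still had 42 to 96 counts per library. In each group 1 library stood apart from the other 3 on the first component of the variation within groups, namely libraries 3 (control), 11, 15, 19 and 23 in order of dose, and the labels give no reason for it. Within their groups these 5 libraries were the highest in all 5 groups for Acox2, Acox3, Scp2, Ech1, Cat and Phyh, and the lowest in all 5 for Pecr, Pex7 and Pex3. The counts of genes that passed are therefore also given without them. Values of single mice are listed in the order of the library numbers, so the third value of each group is that of the library that stood apart.

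At 6.0 mg/kg-day the genes that rose were led by the thiolase Acaa1b (4.20-fold) and, among the other oxidation genes, by the bifunctional enzyme Ehhadh (3.08-fold) and the carnitine acetyltransferase Crat (3.05-fold), and the division gene Pex11a led the assembly genes (2.20-fold). Of the 31 genes 12 rose, 3 fell and 16 did not pass, where 11.2% of all rows tested rose and 11.2% fell. Of the 18 oxidation genes 9 rose (Acox2, Ehhadh, Hsd17b4, Acaa1a, Acaa1b, Decr2, Ech1, Crat and Abcd3) and 1 fell (Acox3). Of the 13 Pex genes 3 rose (Pex11a, Pex11g and Pex13) and 2 fell (Pex6 and Pex26). The median change was 0.37 over the oxidation genes and 0.11 over the Pex genes, beside -0.02 over all rows. Without the 5 libraries that stood apart, 13 of the 31 rose and 3 fell, Scp2 being the added one, beside 17.8% and 16.7% of all rows. In fits with any 1 of the 20 libraries left out, 12 rose and 3 fell every time. In a fit of the 6.0 mg/kg-day and control mice alone, 9 rose and 2 fell. Over all rows 1726 passed in either direction in that fit, against 3405 in the fit of all groups. Decr2 (edgeR adjusted p = 0.101), Pex13 (0.0715), Pex6 (0.0675) and Pex11g (0.103) no longer passed.

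**Figure D1:**
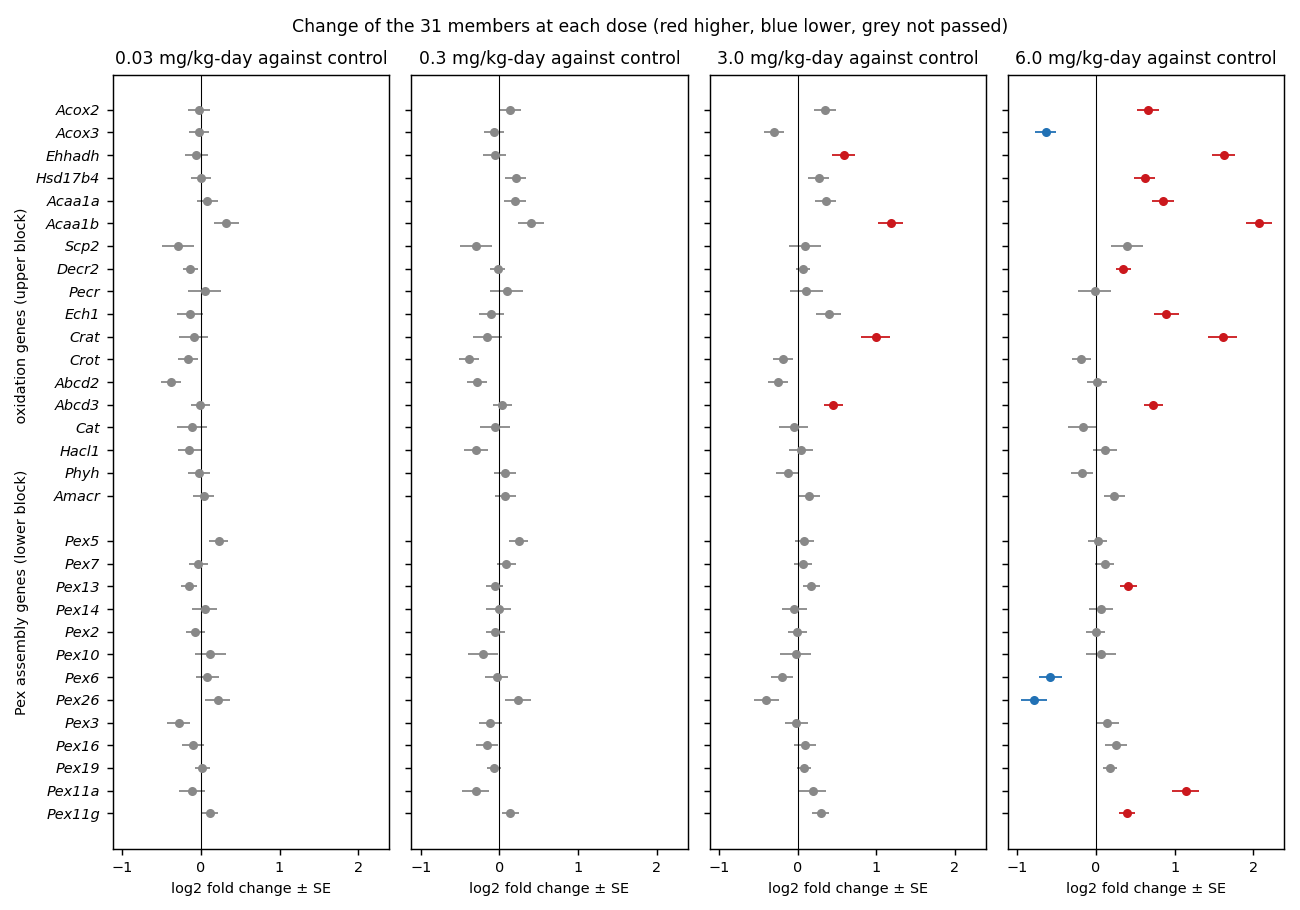
Log2 fold change ± SE of each of the 31 genes (rows) at each dose against the control (panels, 4 mice per group), with genes that rose in red, genes that fell in blue and genes that did not pass in grey. No gene passed at 0.03 or 0.3 mg/kg-day, 4 rose at 3.0 mg/kg-day, and 12 rose and 3 fell at 6.0 mg/kg-day.

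The acyl-CoA oxidases on the list moved in opposite directions at 6.0 mg/kg-day. Acox2 codes for the oxidase that acts on the CoA esters of bile acid intermediates, and Acox3 for an oxidase of branched-chain acyl-CoAs such as pristanoyl-CoA. Acox2 stood at 303, 324, 393 and 288 CPM in the mice at 6.0 mg/kg-day, against 195, 201, 239.6 and 190.5 CPM in the controls. Every mouse at that dose was above every control, and the library that stood apart was the highest in both groups. Acox2 rose by 0.66 ± 0.14 (edgeR adjusted p = 0.00198). Acox3 stood at 22.8, 21.0, 32.6 and 28.2 CPM at 6.0 mg/kg-day, against 40.1, 42.2, 42.6 and 38.4 CPM in the controls, and every treated mouse was below every control. Its change was -0.64 ± 0.13 (edgeR adjusted p = 0.00115). The changes at 3.0 mg/kg-day, 0.35 for Acox2 and -0.30 for Acox3, did not pass (adjusted p = 0.224 and 0.255). Both passed in a fit with a term for the 5 libraries that stood apart (edgeR adjusted p = 0.0125 and 0.0495), but not without these libraries (0.0551 and 0.11). Per kilobase of annotated exon, Acox2 was the more abundant of the pair in both groups. It stood at 88.3 CPM per kb against 2.27 for Acox3 at 6.0 mg/kg-day, and at 55.8 against 3.54 in the controls. The size of this gap depends on the lengths, which join the exons of all annotated transcripts (3703 bases for Acox2, 11521 for Acox3). In CPM the means at 6.0 mg/kg-day were 327 and 26.1.

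Both bifunctional enzymes, which carry out the hydration and the dehydrogenation that follows, rose. Ehhadh (ENSMUSG00000022853.7, chr16:21761287-21787807, minus strand) codes for the L-bifunctional enzyme, which handles straight-chain and dicarboxylic acyl-CoAs. Its level was 897, 1040.1, 1221 and 1043 CPM in the mice at 6.0 mg/kg-day and 276, 335, 396 and 358 CPM in the controls. The lowest treated mouse had more than 2 times the level of the highest control. Ehhadh rose by 1.62 ± 0.15 (edgeR adjusted p = 1.95e-07). Mice at 3.0 mg/kg-day had 382, 451, 661 and 553 CPM, with 3 of the 4 above every control and 1 inside the control range. The change of 0.58 ± 0.15 passed (edgeR adjusted p = 0.0244), but not once library 1, 2, 19 or 20 was left out, when the adjusted p reached up to 0.113. It did not pass either with only the 2 groups in the fit (0.134) or with library totals alone as the scaling (0.0634). Mice at 6.0 mg/kg-day exceeded those at 3.0 mg/kg-day by 1.04 ± 0.15 (edgeR adjusted p = 0.00138), with no overlap. At the lower doses the means were 328 ± 24.9 CPM at 0.03 mg/kg-day and 328 ± 12.4 CPM at 0.3 mg/kg-day, close to the control mean of 341 ± 49.9 CPM. Hsd17b4, the D-bifunctional enzyme of branched-chain and bile acid oxidation, averaged 444 ± 49.1 CPM at 6.0 mg/kg-day and 289.7 ± 24.9 CPM in controls, and rose by 0.62 ± 0.13 (edgeR adjusted p = 0.00199).

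**Figure D2:**
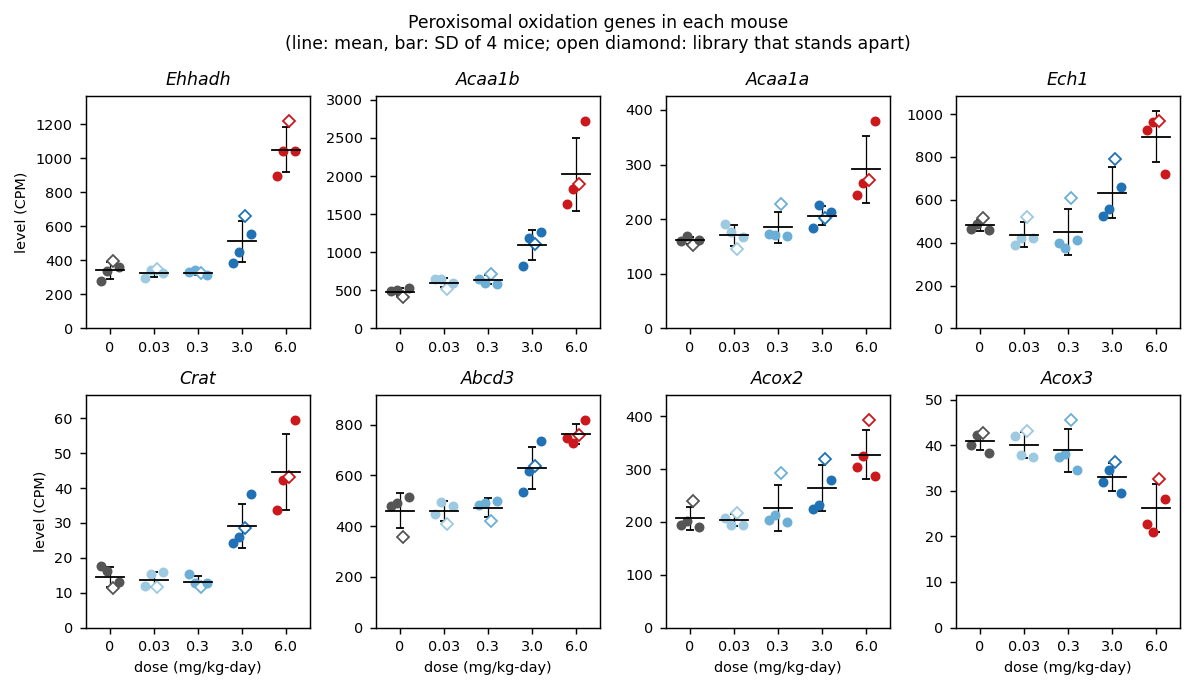
Level in CPM (vertical axis, from 0) of 8 oxidation genes in each mouse by dose in mg/kg-day (0 is the control); points are mice, open diamonds the libraries that stood apart, lines group means and bars the SD of 4 mice. The mice at 6.0 mg/kg-day lie above every control in 7 panels and below every control for Acox3. The groups at 0.03 and 0.3 mg/kg-day overlap the controls, except for Acaa1b and Acaa1a at 0.3 mg/kg-day. There all 4 mice lie above every control, in changes that did not pass.

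The thiolases, which cut the shortened chain in the last step, held the largest rise of all 31 genes. Acaa1b (ENSMUSG00000010651.4, chr9:119148023-119157093, minus strand) stood at 1629.8, 1833, 1892 and 2728 CPM in the mice at 6.0 mg/kg-day, against 486, 506, 406 and 528 CPM in the controls. All treated mice were more than 3 times above the highest control, library 24 being the highest. Acaa1b rose by 2.07 ± 0.17 (edgeR adjusted p = 3.32e-08). In the mice at 3.0 mg/kg-day it stood at 816, 1183, 1104 and 1269 CPM, above every control, and rose by 1.18 ± 0.16 (edgeR adjusted p = 8.78e-05). This call held with any single library left out. The mice at 6.0 mg/kg-day were higher again than those at 3.0 mg/kg-day, by 0.89 ± 0.16 (edgeR adjusted p = 0.00601). The group means at the lower doses were 602 ± 61.7 CPM at 0.03 mg/kg-day and 637 ± 60.7 CPM at 0.3 mg/kg-day, against 481 ± 53.2 CPM in controls. All 4 mice at 0.3 mg/kg-day were above every control, but the change of 0.40 ± 0.16 did not pass (edgeR adjusted p = 0.439).

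Acaa1a (ENSMUSG00000036138.16, chr9:119339676-119350299, plus strand), the closest relative of Acaa1b, also rose. Its level was 244, 266, 272 and 381 CPM at 6.0 mg/kg-day and 159.5, 169, 153 and 163 CPM in the controls. The groups did not overlap, and library 24 was again the highest. Acaa1a rose by 0.85 ± 0.14 (edgeR adjusted p = 0.000116). All 4 mice at 3.0 mg/kg-day, at 184, 225, 202 and 213 CPM, were above the controls, yet the change of 0.36 ± 0.14 did not pass (edgeR adjusted p = 0.188). Per base of the main transcript, the ratio of Acaa1b to Acaa1a was 3.12 ± 0.253 in controls, 3.69 ± 0.116 at 0.03, 3.62 ± 0.267 at 0.3, 5.50 ± 0.655 at 3.0 and 7.22 ± 0.214 at 6.0 mg/kg-day (SD, n = 4). The ratio in the mice at 6.0 mg/kg-day (6.96 to 7.48) did not overlap that at any other dose, and the ratios at 0.03 mg/kg-day (3.53 to 3.80) and 3.0 mg/kg-day (4.63 to 6.20) did not overlap that of the controls (2.77 to 3.38). At 0.3 mg/kg-day the ratio (3.29 to 3.94) overlapped the controls.

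How far reads of the thiolase pair can be told apart bears on these values, since no source used here states how the authors split shared reads. The main transcripts, 1762 bases for Acaa1a and 1689 for Acaa1b in the GENCODE M21 annotation of GRCm38, were 96.5% identical over 1272 aligned coding bases, with 44 mismatches. A run of 50 bases was found unchanged in the other transcript for 34.0% of the positions of Acaa1a and 35.5% of those of Acaa1b. The deposited counts were whole numbers (within 0.01) in 0 of 20 libraries for Acaa1a and 2 of 20 for Acaa1b, so part of either value may come from the other gene. The 90 coding bases with the most differences are shown because reads there can tell the genes apart. They span transcript positions 681 to 770 of Acaa1a and 559 to 648 of Acaa1b, 5′ to 3′, with the 13 differing bases in capitals.
Acaa1a: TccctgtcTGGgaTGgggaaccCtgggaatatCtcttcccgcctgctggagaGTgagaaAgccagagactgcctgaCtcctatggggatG
Acaa1b: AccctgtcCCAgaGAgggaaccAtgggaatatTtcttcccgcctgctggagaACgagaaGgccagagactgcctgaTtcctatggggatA

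Scp2 codes for the thiolase of branched-chain and bile acid side chains and for the lipid carrier made from the same gene. It stood at 1838, 1827, 2278 and 1572 CPM at 6.0 mg/kg-day and 1273, 1395, 1918 and 1158 CPM in the controls, and the groups overlapped through library 3. The change of 0.39 ± 0.20 did not pass (edgeR adjusted p = 0.184). Without the 5 libraries that stood apart it was 0.47 and passed (edgeR adjusted p = 0.00391). Scp2 was also higher at 6.0 than at 0.3 mg/kg-day, by 0.68 ± 0.20 (edgeR adjusted p = 0.018), a call lost without library 14 or 16, when the adjusted p reached up to 0.0604.

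Of the 3 genes grouped here as enzymes acting on unsaturated acyl-CoAs, 2 rose. Ech1, the dienoyl-CoA isomerase of peroxisomes and mitochondria, stood at 924, 964, 969.6 and 719.6 CPM in mice at 6.0 mg/kg-day, against 465, 487, 516 and 459 CPM in controls. The groups did not overlap, and library 24, the highest for both thiolases Acaa1a and Acaa1b, was the lowest treated mouse here. Ech1 rose by 0.89 ± 0.16 (edgeR adjusted p = 0.000392). Decr2, the peroxisomal dienoyl-CoA reductase, averaged 112 ± 7.73 CPM at 6.0 mg/kg-day and 88.4 ± 5.26 CPM in controls, a rise of 0.35 ± 0.09 (edgeR adjusted p = 0.012). Pecr, the peroxisomal enoyl-CoA reductase, averaged 78.6 ± 18.4 CPM at 6.0 mg/kg-day and 79.5 ± 20.1 CPM in controls, with a change of -0.02 ± 0.21 (edgeR adjusted p = 0.964).

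The carnitine acyltransferases, which turn acyl-CoAs into carnitine esters, were represented by Crat, which rose, and Crot, which did not pass. Counts per gene do not tell in which part of the cell the product acts. Crat, the carnitine acetyltransferase, stood at 33.7, 42.3, 43.0 and 59.6 CPM in the mice at 6.0 mg/kg-day, against 17.6, 16.3, 11.4 and 13.1 CPM in the controls. Every treated mouse was above every control, with library 24 highest. Crat rose by 1.61 ± 0.19 (edgeR adjusted p = 2.88e-06). At 3.0 mg/kg-day it stood at 24.1, 25.9, 28.4 and 38.3 CPM, again without overlap, and rose by 0.99 ± 0.19 (edgeR adjusted p = 0.00209), a call that held with any single library left out. At 0.03 and 0.3 mg/kg-day its means were 13.7 ± 2.22 and 13.2 ± 1.48 CPM, beside 14.6 ± 2.86 CPM in controls. Crot, the octanoyltransferase for medium chains, averaged 1042 ± 145 CPM at 6.0 mg/kg-day and 1185 ± 93.8 CPM in controls, and its change of -0.19 ± 0.12 did not pass (edgeR adjusted p = 0.305). It was lowest at 0.3 mg/kg-day, at 840.3, 944, 893 and 946 CPM, where every mouse was below every control, but this change of -0.39 ± 0.12 did not pass either (edgeR adjusted p = 0.258).

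Of the ABC transporters that carry acyl-CoAs into the organelle, Abcd3 rose and Abcd2 did not pass. Abcd3 stood at 749, 726, 759 and 819.9 CPM at 6.0 mg/kg-day and 480.4, 489.7, 359 and 513 CPM in the controls, without overlap. It rose by 0.73 ± 0.12 (edgeR adjusted p = 0.000221). At 3.0 mg/kg-day the mice, at 533, 616, 636 and 736 CPM, were also all above the controls. That change of 0.45 ± 0.12 passed (edgeR adjusted p = 0.0382) but lay near the threshold: it was lost in 10 of the 20 fits with 1 library left out (without library 1, 2, 3, 12, 13, 14, 16, 18, 19 or 20, with an adjusted p of up to 0.186), without the filter on low counts (0.0679), without the 5 libraries that stood apart (0.0696) and with only the 2 groups in the fit (0.16). Abcd2 averaged 155 ± 17.1 CPM in controls, 119 ± 9.27 at 0.03, 127 ± 7.57 at 0.3, 131 ± 22.8 at 3.0 and 156 ± 19.3 at 6.0 mg/kg-day. Its changes were -0.38, -0.29, -0.25 and 0.01 from the lowest to the highest dose, and none passed. All 4 mice at 0.03 mg/kg-day were below every control (edgeR adjusted p = 1).

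Catalase, the alpha oxidation genes and the racemase gene Amacr did not pass at any dose against the control in the main fit. Amacr passed at 6.0 mg/kg-day with a term for the 5 libraries that stood apart (0.24, edgeR adjusted p = 0.0476), but not without these libraries. Cat, the enzyme that breaks down hydrogen peroxide, stood at 1903, 1565, 2684 and 1959.7 CPM at 6.0 mg/kg-day and 2017, 1931, 2812 and 2369 CPM in the controls. The groups overlapped, the libraries that stood apart were the highest of both, and the change was -0.17 ± 0.19 (edgeR adjusted p = 0.559). Phyh, which hydroxylates phytanoyl-CoA, had a log2 change of -0.18 ± 0.14 (adjusted p = 0.407). Hacl1, the lyase of the next step in the same pathway, had one of 0.12 ± 0.15 (adjusted p = 0.631), and Amacr, the racemase of branched-chain acyl-CoAs, one of 0.23 ± 0.13 (adjusted p = 0.235). Control means of these genes were 1361 CPM for Phyh, 339 for Hacl1 and 221 for Amacr. Hacl1 was higher at 6.0 than at 0.3 mg/kg-day by 0.41 ± 0.15 (edgeR adjusted p = 0.0492), but this did not pass in 16 of the 20 fits with 1 library left out. Its exons share 31.1% of their bases with Gm49387, a gene on the same strand.

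Among the assembly genes, the division genes rose and the receptor-recycling genes fell at 6.0 mg/kg-day, while most genes of import and membrane assembly did not pass. Pex11a, the PEX11 form whose product elongates peroxisomes before they divide and which is known as an inducible gene of rodent liver (ENSMUSG00000030545.9, chr7:79735957-79743131, minus strand), stood at 71.9, 86.2, 86.8 and 133 CPM at 6.0 mg/kg-day and 41.5, 50.2, 34.1 and 45.7 CPM in the controls. Every treated mouse was above every control, and library 24 was the highest. Pex11a rose by 1.14 ± 0.17 (edgeR adjusted p = 5.61e-05). Its levels at 3.0 mg/kg-day were 41.0, 49.1, 48.8 and 57.0 CPM, with 1 mouse above every control, and its change of 0.19 ± 0.17 did not pass (edgeR adjusted p = 0.717). The mice at 6.0 mg/kg-day exceeded those at 3.0 mg/kg-day by 0.95 ± 0.17 without overlap (edgeR adjusted p = 0.00559). At 0.3 mg/kg-day it was 37.7, 35.5, 33.3 and 32.8 CPM, with 2 mice below every control, and the change of -0.30 ± 0.17 did not pass (edgeR adjusted p = 0.696). Pex11g, another PEX11 form, averaged 80.5 ± 10.2 CPM at 6.0 mg/kg-day and 61.2 ± 6.53 CPM in controls, a rise of 0.39 ± 0.11 (edgeR adjusted p = 0.0114), but it did not pass the joint test of all doses (adjusted p = 0.0548). Its exons overlap the opposite-strand transcript Gm44775 over 41.1% of their bases, and that row averaged 1.14 CPM.

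Pex6 and Pex26 act as a pair: Pex6 is part of the ATPase that pulls the import receptor back out of the membrane, and Pex26 anchors that ATPase there. Both fell. Pex26 stood at 14.8, 10.7, 18.8 and 17.7 CPM at 6.0 mg/kg-day and 26.2, 29.0, 24.3 and 28.2 CPM in controls, without overlap. Its change was -0.80 ± 0.17 (edgeR adjusted p = 0.0015). The values at 3.0 mg/kg-day were 23.9, 23.9, 17.0 and 17.0 CPM, below every control, and the change of -0.40 ± 0.16 did not pass (edgeR adjusted p = 0.236). At 0.3 mg/kg-day all 4 mice, at 30.6, 35.6, 30.3 and 30.6 CPM, were above every control, again without passing (0.24 ± 0.16, edgeR adjusted p = 0.771). Set against 0.3 mg/kg-day, Pex26 was lower at 6.0 mg/kg-day by a log2 change of -1.04 ± 0.17 (edgeR adjusted p = 0.000122). Pex6 stood at 41.6, 37.8, 45.4 and 58.4 CPM at 6.0 mg/kg-day and 78.2, 79.5, 54.7 and 62.0 CPM in controls. Of the treated mice 3 were below every control and library 24 lay within the control range. Its change was -0.58 ± 0.14 (edgeR adjusted p = 0.00596).

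**Figure D3:**
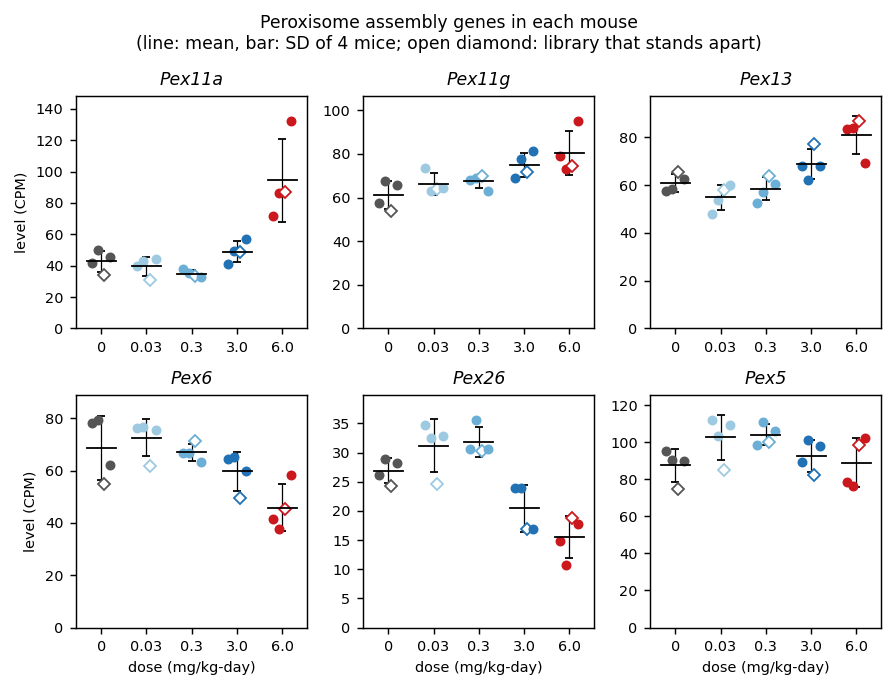
Level in CPM (vertical axis, from 0) of 6 assembly genes in each mouse by dose in mg/kg-day (0 is the control); points are mice, open diamonds the libraries that stood apart, lines group means and bars the SD of 4 mice. At 6.0 mg/kg-day Pex11a, Pex11g and Pex13 lie above every control, Pex26 below every control and Pex6 mostly below, while the import receptor gene Pex5 overlaps the controls.

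Pex13 and Pex14 form the docking site at which loaded import receptors meet the membrane. Pex13 stood at 83.6, 84.2, 87.1 and 69.2 CPM at 6.0 mg/kg-day and 57.4, 58.3, 65.7 and 62.6 CPM in controls, without overlap, and rose by 0.41 ± 0.11 (edgeR adjusted p = 0.00892). Pex14 ranged from 21.2 to 34.5 CPM at 6.0 mg/kg-day and from 23.9 to 28.6 CPM in controls, with a change of 0.06 ± 0.16 (edgeR adjusted p = 0.805). The treated mice lay on either side of all controls, 2 above and 2 below, and 28.3% of the exon bases of Pex14 overlap the opposite-strand transcript Gm17029, a row that averaged 3.80 CPM. The import receptors did not pass, at 0.02 ± 0.12 for Pex5, which binds the C-terminal targeting signal, and 0.11 ± 0.12 for Pex7, which binds the N-terminal one (edgeR adjusted p = 0.916 and 0.55). The RING ubiquitin ligase genes, whose products mark the receptor for recycling, did not pass either, at -0.01 ± 0.12 for Pex2 and 0.07 ± 0.19 for Pex10 (edgeR adjusted p = 0.98 and 0.841). Nor did the genes for placing membrane proteins, at 0.14 ± 0.15 for Pex3, 0.26 ± 0.14 for Pex16 and 0.18 ± 0.09 for Pex19 (edgeR adjusted p = 0.525, 0.204 and 0.183). Of these 3, Pex16 was higher at 6.0 than at 0.3 mg/kg-day by 0.41 ± 0.14 (edgeR adjusted p = 0.0354), a call lost in 5 of the 20 fits with 1 library left out (library 13, 14, 16, 22 or 24, with an adjusted p of up to 0.118).

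Over the doses, the first genes of the set to pass were oxidation genes. At 0.03 mg/kg-day 0 of the 31 genes passed in edgeR, where 0% of all rows did; 1 member and 565 rows had an unadjusted p under 0.05. Limma-voom called 1 row and DESeq2 10 rows at that dose, none of them members. At 0.3 mg/kg-day 0 members passed, beside 0.290% of all rows, while 3 members and 1301 rows had an unadjusted p under 0.05. Limma-voom and DESeq2 again called 0 members. At 3.0 mg/kg-day 4 members rose (Acaa1b, Crat, Ehhadh and Abcd3) and 0 fell, beside 3.18% and 1.43% of all rows, while 0 of the 13 Pex genes passed in edgeR, limma-voom or DESeq2. With 1 library left out, between 2 and 4 of the 31 rose at that dose, Acaa1b and Crat in every fit; only these 2 rose without library 1, 2, 19 or 20. Without the 5 libraries that stood apart 3 rose, Abcd3 being lost, beside 3.98% of all rows. With a term for these libraries 6 rose, Acox2 and Ech1 being added, and Acox3 fell, beside 5.59% and 3.58% of all rows. The median change of the oxidation genes was -0.04 at 0.03, -0.04 at 0.3, 0.13 at 3.0 and 0.37 at 6.0 mg/kg-day. For the Pex genes it was 0.02, -0.05, 0.07 and 0.11, and for all rows -0.01, -0.02, -0.02 and -0.02. The 4 comparisons share the control mice and are not independent of each other.

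Directly between the doses, 3 members were higher at 6.0 than at 3.0 mg/kg-day (Ehhadh, Pex11a and Acaa1b) and 0 lower, beside 1.03% and 1.06% of all rows. Without library 21, 5 were higher, and without library 23, 1 was lower. Rows passing in either direction were 318 with all libraries, 110 to 969 with 1 left out, and 969 without library 23. Without the 5 libraries that stood apart, 8 members were higher and 3 lower, beside 4.55% and 5.20% of all rows. The added ones were Acaa1a, Acox2, Crat, Ech1 and Scp2, higher, and Acox3, Pex6 and Pex26, lower. Against 0.3 mg/kg-day, 14 members were higher at 6.0 mg/kg-day (10 to 14 with 1 library left out) and 3 lower, beside 14.0% and 13.8% of all rows. Without the 5 libraries these counts were 15 and 4, beside 22.2% and 20.2%. In the joint test of the 4 doses 14 members passed, 10 oxidation and 4 Pex genes, beside 21.4% of all rows, and 18 passed without the 5 libraries, beside 36.5%. By the plain criterion of no overlap with the controls, over all 20 libraries, 12 members lay above and 2 below at 6.0 mg/kg-day, beside 9.68% and 8.86% of all rows. At 0.03, 0.3 and 3.0 mg/kg-day 1, 6 and 8 members did not overlap the controls in either direction, beside 3.32%, 6.69% and 10.5% of all rows.

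**Figure D4:**
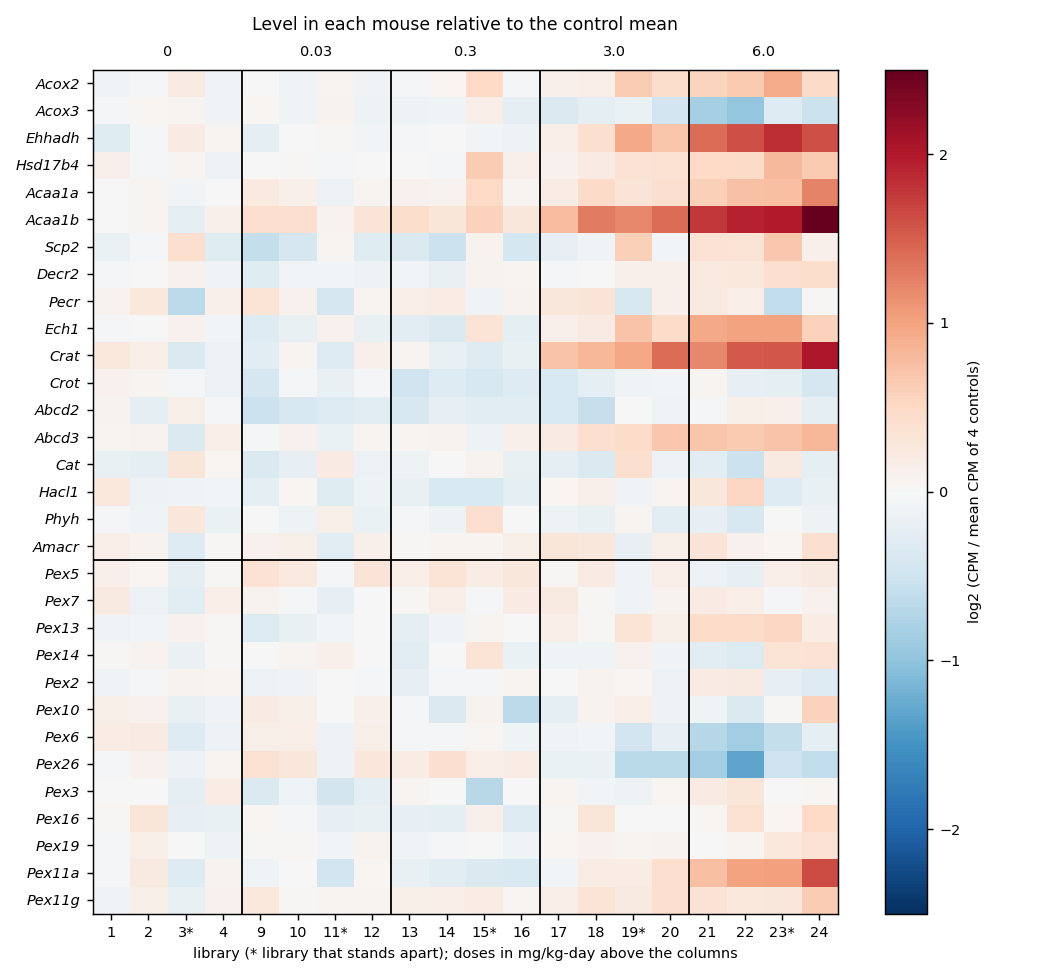
Log2 of the level in each library (columns, in order of dose, with * for the libraries that stood apart) over the mean of the 4 controls, for 18 oxidation genes (upper block) and 13 Pex genes (lower block). Red fills the rows of Acaa1b and Crat in the 2 groups with the highest doses and those of Ehhadh and Pex11a at 6.0 mg/kg-day. Ehhadh is also red at 3.0 mg/kg-day except in library 17, near the control mean (382 against 341 CPM). Blue marks the rows of Acox3, Pex6 and Pex26 at 6.0 mg/kg-day, faintly for Pex6 in library 24 (58.4 CPM against a control mean of 68.6).

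Levels can be set against each other per kilobase of annotated exon. The length joins the exons of all annotated transcripts of a gene, so ranks depend on the annotation. For Acaa1b over Acaa1a in controls it gave a ratio of 6.72, against 3.12 per base of the main transcript. In controls Cat was the most abundant member, at 873 CPM per kb, ahead of Phyh (719), Scp2 (413), Acaa1b (245), Crot (217) and Ech1 (211), and Pex10 was the least abundant (1.08). Mean Acaa1b reached 1029.9 CPM per kb at 6.0 mg/kg-day, beside 776 for Cat and 636 for Phyh. Among the 31 genes Acaa1b had rank 1 in 3 of the 4 mice at 6.0 mg/kg-day and rank 2 in library 23, against rank 4 in 3 controls and rank 6 in library 3. Cat had rank 1 in all 4 controls. Crat, in spite of its rise, stayed low, at 8.29 CPM per kb at 6.0 mg/kg-day and 2.71 in controls. Shares of the library totals after scaling follow, and shares of the unscaled counts were not computed. Together the 18 oxidation genes took 0.962 ± 0.0769% in controls, 0.903 ± 0.0662% at 0.03, 0.92 ± 0.0895% at 0.3, 1.07 ± 0.147% at 3.0 and 1.30 ± 0.0944% at 6.0 mg/kg-day (SD, n = 4). The 13 Pex genes took 0.0692 ± 0.0048%, 0.0702 ± 0.0042%, 0.0699 ± 0.0017%, 0.0722 ± 0.00227% and 0.0785 ± 0.00653% in the same order. For the oxidation genes the share at 6.0 mg/kg-day (1.22% to 1.43%) lay above every control (0.919% to 1.08%). For the Pex genes (0.0734% to 0.0879%, against 0.0623% to 0.0733%) the gap was too narrow to read as a separation. It lay between library 21 (0.07342%) and control library 2 (0.07328%), whose scaling factors were 0.921 and 0.960. Pex11a alone averaged 94.4 CPM at 6.0 mg/kg-day and 42.9 CPM in controls. Whether the oxidation and Pex genes differ in their response was not tested.

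Other peroxisomal genes were taken from a list of 40, of which 38 were tested. At 6.0 mg/kg-day 11 rose and 3 fell, with a median of 0.09, where 11.2% of all rows tested rose and 11.2% fell. At 3.0 mg/kg-day 3 rose and 1 fell, beside 3.18% and 1.43% of all rows. Ephx2, an epoxide hydrolase found in peroxisomes and the cytosol, averaged 636 ± 62.6 CPM at 6.0 mg/kg-day and 336 ± 10.1 CPM in controls, a change of 0.92 ± 0.12 (edgeR adjusted p = 7.94e-06). Idh1, the NADP-dependent isocitrate dehydrogenase that supplies NADPH, averaged 742 ± 103 CPM at 6.0 mg/kg-day and 415 ± 40.4 CPM in controls, a change of 0.84 ± 0.11 (edgeR adjusted p = 1.31e-05). In both cases every treated mouse was above every control. Slc25a17, a carrier of cofactors across the peroxisomal membrane, averaged 81.0 ± 11.5 CPM at 6.0 mg/kg-day and 44.5 ± 3.92 CPM in controls, a change of 0.86 ± 0.12 (edgeR adjusted p = 1.81e-05). Acot3, a peroxisomal acyl-CoA thioesterase, averaged 46.2 ± 14.7 CPM at 6.0 mg/kg-day and 126 ± 26.1 CPM in controls, a change of -1.45 ± 0.24 (edgeR adjusted p = 0.000155). The other 2 that fell, named here after their values were seen, were Nudt7, a peroxisomal coenzyme A diphosphatase (-1.23 ± 0.25), and Acot4, a thioesterase for succinyl-CoA and other dicarboxylic acyl-CoAs (-0.65 ± 0.23; edgeR adjusted p = 0.00123 and 0.0469).

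Known PPARA targets outside the peroxisome were set beside the members. Of 31 listed 29 were tested. At 6.0 mg/kg-day 16 rose and 2 fell, with a median of 0.66, beside 11.2% and 11.2% of all rows. At 3.0 mg/kg-day 8 rose and 1 fell, beside 3.18% and 1.43%. Cyp4a14, a fatty acid omega hydroxylase whose products are dicarboxylic acids, averaged 2872 ± 384 CPM at 6.0 mg/kg-day and 133 ± 43.4 CPM in controls, a change of 4.44 ± 0.35 (edgeR adjusted p = 2.25e-08). Its neighbour in function, Cyp4a10, averaged 1293 ± 63.6 CPM at 6.0 mg/kg-day and 299.9 ± 23.9 CPM in controls, a change of 2.11 ± 0.18 (edgeR adjusted p = 8.28e-08). The change of Cyp4a10 was close in size to that of Acaa1b (2.07 ± 0.17). Acot1, a cytosolic acyl-CoA thioesterase, averaged 184 ± 27.7 CPM at 6.0 mg/kg-day and 35.3 ± 3.35 CPM in controls, a change of 2.38 ± 0.21 (edgeR adjusted p = 8.70e-08). Acot2, its mitochondrial relative, averaged 68.4 ± 5.74 CPM at 6.0 mg/kg-day and 16.3 ± 1.89 CPM in controls, a change of 2.07 ± 0.15 (edgeR adjusted p = 6.58e-09). The 2 that fell, named after their values were seen, were Cpt1a, the carnitine palmitoyltransferase of mitochondrial entry (-0.59 ± 0.13), and Slc27a1, a fatty acid transport protein gene (-0.98 ± 0.24; edgeR adjusted p = 0.00296 and 0.00494). Several of these genes have near-identical copies, so that the split of reads among them is uncertain.

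The receptor gene itself was lower. Ppara averaged 44.9 ± 16.8 CPM at 6.0 mg/kg-day and 94.3 ± 7.39 CPM in controls, a change of -1.07 ± 0.18 (edgeR adjusted p = 0.000225). Rxra, the gene of its usual partner, averaged 193 ± 98.2 CPM at 6.0 mg/kg-day and 320.4 ± 47.9 CPM in controls, a change of -0.73 ± 0.27 (edgeR adjusted p = 0.0557). Ppara was below every control in all 4 mice, whereas Rxra overlapped and did not pass. Of 19 genes for PPARA, its partners and cofactors, all tested, 7 were lower and 1 higher at 6.0 mg/kg-day, beside 11.2% and 11.2% of all rows. The median change of the 19 genes was -0.58. Mice at 3.0 mg/kg-day had 2 of the 19 lower and 0 higher, beside 1.43% and 3.18% of all rows. Lpin1, a phosphatidate phosphatase that also acts as a coactivator, averaged 17.8 ± 5.86 CPM at 6.0 mg/kg-day and 31.5 ± 2.07 CPM in controls, a change of -0.82 ± 0.17 (edgeR adjusted p = 0.0015). Pparg, a related receptor better known from fat tissue, averaged 20.2 ± 2.15 CPM at 6.0 mg/kg-day and 9.85 ± 0.793 CPM in controls, a change of 1.04 ± 0.13 (edgeR adjusted p = 6.68e-06). Pparg was the 1 gene of this list that rose. What these levels mean for the activity of the receptor was not tested.

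The promoters of Ehhadh, Acaa1b and Pex11a, which are among the 4 genes with the largest rises, and of Acaa1a, the relative of Acaa1b, are shown because the set is known for control through PPARA, which binds a direct repeat of the hexamer AGGTCA with 1 base between the copies. RefSeq start sites in the GRCm38.p6 table gave 30 promoters for 25 of the 31 genes, Crat not among them, each from 250 bases before to 50 bases after the start. The exact repeat was found on either strand in 0 of the 30 and in 13 of all 32851 promoters (0.04%). The same repeat of AGGNCA, which includes the exact one, was found in 0 of the 30 and in 0.381% of all. The single hexamer AGGTCA was found in 4 of the 30 (Phyh, Cat, Scp2 and Pex11g) and in 16.255% of all; it is contained in the exact repeat. These counts cover the letters in these windows only, and sites farther away were not searched. For Ehhadh, Acaa1b, Acaa1a and Pex11a the 250 bases before the start are printed 5′ to 3′ along the gene, at chr16:21787835-21788084, chr9:119157094-119157343 and chr7:79743132-79743381 on the minus strand and at chr9:119341044-119341293 on the plus strand. Capitals mark the best local alignment between Acaa1a and Acaa1b, 22 bases with 18 identical. The coding sequences of the pair, by contrast, aligned over their whole length. The other 2 held no motif match and have no capitals.
Ehhadh: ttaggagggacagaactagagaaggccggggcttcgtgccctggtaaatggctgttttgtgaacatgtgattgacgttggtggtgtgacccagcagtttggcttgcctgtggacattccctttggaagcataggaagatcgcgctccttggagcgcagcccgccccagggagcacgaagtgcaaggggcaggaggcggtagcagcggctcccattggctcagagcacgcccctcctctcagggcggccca
Acaa1b: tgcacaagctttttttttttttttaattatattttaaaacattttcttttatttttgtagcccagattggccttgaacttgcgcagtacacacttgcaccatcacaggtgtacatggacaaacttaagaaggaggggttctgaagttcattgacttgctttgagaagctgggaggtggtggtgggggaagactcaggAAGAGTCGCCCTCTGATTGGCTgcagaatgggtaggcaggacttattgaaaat
Acaa1a: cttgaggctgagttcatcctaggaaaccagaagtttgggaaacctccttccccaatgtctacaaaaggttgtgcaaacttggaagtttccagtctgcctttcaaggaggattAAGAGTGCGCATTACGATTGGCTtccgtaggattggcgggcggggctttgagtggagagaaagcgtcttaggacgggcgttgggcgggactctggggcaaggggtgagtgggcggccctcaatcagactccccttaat
Pex11a: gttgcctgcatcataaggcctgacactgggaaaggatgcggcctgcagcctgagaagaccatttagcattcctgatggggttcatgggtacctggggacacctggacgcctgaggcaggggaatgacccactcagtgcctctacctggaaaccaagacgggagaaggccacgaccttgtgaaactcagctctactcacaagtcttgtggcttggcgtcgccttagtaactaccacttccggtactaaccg

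Markers of the cell types that liver samples can hold also differed between the groups. The summed level of 9 hepatocyte markers was 85023 to 116430.0 CPM at 6.0 mg/kg-day and 131170.0 to 178070.0 CPM in controls, without overlap. Most of the sum was albumin, Alb, with a mean of 73798 CPM at 6.0 mg/kg-day and 126660.0 CPM in controls, while Serpina1a averaged 7708 CPM at 6.0 mg/kg-day and 7284 CPM in controls and did not pass. Of these 9, 4 fell and 0 rose at 6.0 mg/kg-day, where 11.2% of all rows tested fell and 11.2% rose. Neutrophil markers summed to 4.96 to 24.0 CPM at 6.0 mg/kg-day and 0.596 to 1.68 CPM in controls. T and NK cell markers summed to 3.08 to 154 CPM at 6.0 mg/kg-day, highest in library 22, and 3.65 to 6.35 CPM in controls. Of those tested, 1 of 2 neutrophil markers and 3 of 4 T and NK cell markers rose and 0 fell. The mean of Nkg7, on the T and NK cell list, was lower (0.163 CPM at 6.0 mg/kg-day, 0.463 in controls). Of 3 erythroid markers 1 rose and 0 fell. Kupffer cell markers (192 to 482 CPM at 6.0 mg/kg-day and 246 to 314 CPM in controls) had 0 of 8 passing, and sinusoidal endothelial markers (176 to 228 CPM at 6.0 mg/kg-day and 204 to 241 CPM in controls) had 2 of 7 higher and 2 lower. Of stellate cell markers 2 of 7 fell, and of the cholangiocyte and B cell lists 0 passed. The adipocyte list had 1 of 3 genes in the table, at under 0.2 CPM in every library, and the skeletal muscle list 1 of 3, at under 0.8 CPM. The part of cell composition in the changes of the members was not tested.

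The exons of 13 of the 31 genes overlap an annotated gene on the opposite strand, and no source used here states whether counting used strand. Dlec1, which shares 11.4% of the exon bases of Acaa1b, averaged 0.396 CPM, and Myd88, which shares 6.57% of those of Acaa1a, averaged 11.7 CPM. Crat shares 1.1% of its exon bases with Dolpp1, which averaged 12.3 CPM, near the control mean of Crat itself, and 7.63% with Gm16323, which averaged 0.131 CPM. Ehhadh and Pex11a had no such overlap.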

How the data were processed

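The deposited table holds estimated counts per gene (values that need not be whole), 1 column per library. The authors worked with Partek on GRCm38.p5, per the submitters' processing notes. No source used here gives the aligner, the way reads were assigned to genes or the use of strand. Of the deposited values 58% were exactly whole (tolerance 0). The 4 sequencing lanes of each library, listed as separate samples, were already joined in the table.

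The expected counts were rounded, filterByExpr removed weakly expressed rows, and libraries were scaled with TMM factors (edgeR 4.0.16, R 4.3.3). A single fit of all 20 libraries with a mean per dose group gave the quasi-likelihood F tests, with 15 residual degrees of freedom; the SE is the size of a log2 change over the square root of its F. The fit was tested on simulated counts. DESeq2 1.42.0, limma-voom (limma 3.58.1), other scalings, no filter, leaving out each library, leaving out or modelling the 5 libraries that stood apart, and fits of 2 groups alone were the alternatives. Gene positions and exon lengths came from GENCODE M21 on GRCm38 and promoters from RefSeq on GRCm38.p6; the deposited table has no coordinates, and protein sequences were not used here.

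The members and all gene lists were chosen with earlier results of these data known. Values in every mouse are given for the 8 oxidation genes and 4 Pex genes whose adjusted p was smallest at 6.0 mg/kg-day, and for further members chosen after their values were seen. From each companion list the 4 genes with the smallest adjusted p are named, with Ppara and Rxra; 1 gene that this rule selects is not reported here. Each library is a separate animal, per the labels.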

Additional observations from a re-analysis of the deposited data

Results flagged for a closer look

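Within a group of 4 mice, 12 of the 155 pairs of member and group held a value far from the other 3 (a gap, as a share of the range, past the 95% critical value of Dixon's test). Chance gives about 1 in 20 such groups. Of the 12, 8 were values of the libraries that stood apart. In library 15 (0.3 mg/kg-day) Acox2 was high at 291.73 CPM (others 199.05 to 212.7), Acaa1a high at 227.14 CPM (169.52 to 172.25), Ech1 high at 610.03 CPM (374.06 to 413.62) and Pex3 low at 15.643 CPM (25.595 to 26.639). In library 19 (3.0 mg/kg-day) Scp2 was high at 2156.7 CPM (others 1242.7 to 1376.5), and Pex14 high at 29.041 CPM (24.762 to 25.3). In library 11 (0.03 mg/kg-day) Amacr was low at 183.78 CPM (237.8 to 243.79), and Pex6 low at 61.913 CPM (75.397 to 76.591).

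The remaining 4 were spread over other libraries. Hacl1 was high in control library 1, at 406.67 CPM (others 310.84 to 323.12). Pex26 was high in library 14 (0.3 mg/kg-day), at 35.65 CPM (30.275 to 30.635). Pex16 was high in library 18 (3.0 mg/kg-day), at 60.662 CPM (48.349 to 50.258). Pex11g was high in library 9 (0.03 mg/kg-day), at 73.723 CPM (62.783 to 64.28). None of the 12 lay in the group at 6.0 mg/kg-day, and Hacl1, the 1 control value among them, did not pass at any dose against the control.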

How the results depend on the processing

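All 12 rises and 3 falls of members at 6.0 mg/kg-day kept their direction under each alternative run. They passed in all except the fit of 2 groups, which lost Decr2, Pex13, Pex6 and Pex11g. With the term for the 5 libraries that stood apart 14 rose and 3 fell, beside 18.4% and 18.7% of all rows. Scp2 and Amacr were the added ones. Rows passing at 0.03 mg/kg-day (0) became 1 with RLE factors, 1 in limma-voom, 10 in DESeq2, 13 with a term for the 5 libraries that stood apart and 2 without them. At 0.3 mg/kg-day (44) they became 186 in DESeq2, 306 with the term and 158 without these libraries, and at 3.0 mg/kg-day (701) 1393 with the term. At 6.0 mg/kg-day (3405) they became 5639 with the term, 5228 without these libraries and 1726 with 2 groups; against 3.0 mg/kg-day (318) 1400, 1476 and, in DESeq2, 658; against 0.3 mg/kg-day (4227) 6553 and 6420. Members higher at 3.0 mg/kg-day (4) became 2 with 2 groups, 3 without these libraries and 6 with the term, under which 1 was lower. Members higher at 6.0 than at 3.0 mg/kg-day became 10 with the term, 8 without these libraries and 7 in DESeq2, and 1 and 3 were lower with the term and without these libraries. With 1 library left out, rows passing were 0 to 1 at 0.03, 12 to 79 at 0.3 (lowest without library 16, highest without 23; 13 to 27 also without 1, 2, 3, 10, 12, 14 or 15), 451 to 819 at 3.0 (lowest without 20) and 2346 to 4653 at 6.0 mg/kg-day. They were 110 to 969 for 6.0 against 3.0 mg/kg-day (110 without library 17, 133 without 18, 126 without 22, 969 without 23) and 2776 to 5626 against 0.3 mg/kg-day (lowest without 22). Members were 2 to 4 higher at 3.0 mg/kg-day, 3 to 5 higher and 0 to 1 lower at 6.0 than at 3.0 mg/kg-day, 10 to 14 higher at 6.0 than at 0.3 mg/kg-day, and 13 to 16 in the joint test. Only changes that did not pass and were near 0 changed sign at 6.0 mg/kg-day. Pecr was 0.0044 with RLE factors and 0.0045 in DESeq2, and Abcd2 -0.0006 with library totals alone. Pex2 was 0.0150 with RLE factors, 0.0157 in DESeq2, 0.0036 with 2 groups and 0.1064 without the 5 libraries, where Pex5 was -0.0778 and Pex14 -0.0737. With 1 library left out Pecr ranged from -0.1837 to 0.1376, Abcd2 from -0.0575 to 0.0873, Hacl1 from -0.0489 to 0.2348, Pex5 from -0.0521 to 0.089, Pex14 from -0.0501 to 0.1792, Pex2 from -0.0945 to 0.089 and Pex10 from -0.1478 to 0.1892. The causes were not tested. No paired analysis was possible because the library numbers are not shared between dose groups. Tests cover the spread between 4 mice per group, and depth was lowest for Pex10, with 42 to 96 counts per library.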
